A study of Rattus norvegicus with 6 samples.

Results

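The miR-181 family is a conserved group of vertebrate microRNAs, short RNAs that guide Argonaute proteins to messenger RNAs and lower their output. Every row of the count table named for an arm of rat miR-181a, miR-181b, miR-181c or miR-181d was taken, which gave 10 members among 1071 rows, 4 of them 5p arms and 6 of them 3p arms. The libraries hold small RNA of fibroblasts of the sciatic nerve, from wild-type, untreated rats, and the labels place all 6 in batch 1. Of these, 3 come from extracellular vesicles that the fibroblasts release (EV, labelled exosomal) and 3 from RNA inside the cells (Intracellular), which served as controls. How vesicles were isolated is not given in the sources used here. Whether replicates were separate animals or cultures is not in the labels, so each p-value speaks only of the spread among these libraries, which may be technical.

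A miRNA precursor is a hairpin, and each of its sides can give a mature strand, the 5p and the 3p arm, and the arm that stays bound to Argonaute is usually far more abundant. Bases 2 to 8 of a strand, its seed, decide most of which messages it binds. In mice, miR-181a is known for setting the sensitivity of developing T cells to antigen by lowering phosphatases. miR-181b has been tied to growth of hepatic stellate cells, the collagen-making cells of the liver, through Cdkn1b. In rat heart miR-181c acts on the mitochondrial transcript mt-Co1, and in human glioma miR-181d lowers the DNA repair enzyme MGMT.

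The 4 sequences of the 5p arms, from RefSeq (build GRCr8), are shown because all have 1 seed, in capitals, and differ by few bases outside it, which bears on how their reads could be told apart.
miR-181a-5p: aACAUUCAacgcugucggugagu
miR-181b-5p: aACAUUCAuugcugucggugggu
miR-181c-5p: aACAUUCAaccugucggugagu
miR-181d-5p: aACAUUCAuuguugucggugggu
Counting from 1 at the 5′ end of miR-181a-5p, miR-181b-5p carries A9U, C10U and A21G. miR-181d-5p differs from miR-181b-5p by C12U alone. miR-181c-5p, at 22 bases against 23 in the others, is 1 edit away from miR-181a-5p, a deleted base. Of 659 rows of the table with a deposited sequence, no row outside the family has the seed ACAUUCA.

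The 3p arms do not have a common seed, again in capitals, and are shown because they tell apart precursors whose 5p arms are identical.
miR-181a-1-3p: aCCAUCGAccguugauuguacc
miR-181a-2-3p: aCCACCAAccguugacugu
miR-181b-1-3p: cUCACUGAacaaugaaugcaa
miR-181c-3p: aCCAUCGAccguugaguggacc
miR-181d-3p: cCACCGGGggaugaauguca
Here miR-181a-1-3p and miR-181c-3p have the seed CCAUCGA in common and differ by U16G and U19G, counted from the 5′ end of miR-181a-1-3p. The remaining member is miR-181b-2-3p. RefSeq mature sequences were found for 9 of the 10 members, and all 9 equal the deposited ones.

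RefSeq (GRCr8) lists 6 miR-181 precursors on 3 chromosomes, in neighbouring pairs. Mir181a-1 and Mir181b1 lie on chromosome 13, with miR-181a-5p at chr13:52037081-52037103 and miR-181b-5p at chr13:52037263-52037285. Mir181a2 and Mir181b2 lie on chromosome 3, with the second copy of miR-181a-5p at chr3:43025601-43025623. Mir181c and Mir181d lie on chromosome 19, with miR-181c-5p at chr19:40888314-40888335 and miR-181d-5p at chr19:40888484-40888506. All positions given here are on the plus strand and refer to GRCr8, not to the build of the deposited files.

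EV libraries held 81211 to 105578 counts and Intracellular libraries 1839047 to 8859302, so that a single count equalled 9.47 to 12.3 CPM (scaled to a library total of 1000000) in EV libraries and 0.113 to 0.544 CPM in Intracellular libraries. Intracellular replicate 1 stood apart from the others of its group, with a TMM scaling factor of 0.557 against 0.963 and 0.935. TMM scales libraries on the premise that most miRNAs do not differ. The 6 fibroblast and mesenchymal marker miRNAs were abundant as a sum, at 415352 to 424302 CPM in EV libraries and 465257 to 490341 CPM in Intracellular libraries. Their levels differed widely, with Intracellular means from 249 CPM for miR-214-3p to 219151 CPM for miR-143-3p. Of the 6, 1 was called higher and 4 called lower in EV (TMM), against 1 and 0 with total counts. Over all tested miRNAs, 25.6% were called higher and 17.1% lower with TMM scaling, against 32.6% and 0.915% with total counts.

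The miR-181 family was a minor but well detected part of both RNA pools, carried almost wholly by miR-181a-5p, miR-181b-5p and miR-181d-5p. All arms together took 0.622%, 0.591% and 0.659% of counts in EV replicates 1, 2 and 3, against 0.325%, 0.567% and 0.529% in Intracellular replicates 1, 2 and 3. The EV shares lay above all Intracellular shares, by little over Intracellular replicates 2 and 3 and by much over replicate 1. Measured likewise against total counts, 41.8% of all tested miRNAs had every EV library above every Intracellular library. Family shares with TMM scaling were not computed. The means were 0.624% ± 0.0338 in EV, against 0.474% ± 0.130 in Intracellular libraries (SD, n = 3 each), or 0.548% in Intracellular libraries without replicate 1. In bulk libraries, fewer vesicles or cells carrying an RNA and less of it in each cannot be told apart.

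rno-miR-181a-5p, the T cell regulator in mice, was the most abundant member, at rank 30 among 552 known rat miRNAs in EV and rank 27 in Intracellular libraries by mean CPM. Its level was 3891, 3789 and 4127 CPM in EV replicates 1 to 3 and 1969, 3793 and 3655 CPM in Intracellular replicates 1 to 3. In CPM the groups overlapped, and Intracellular replicate 1 alone was low. The mean of miR-181a-5p was 3935 ± 173 CPM in EV libraries, against 3139 ± 1015 CPM in Intracellular libraries (SD, n = 3). Without Intracellular replicate 1 the Intracellular mean was 3724 CPM. After TMM scaling this arm was at 2881, 3026 and 3529 CPM in EV libraries and at 3540, 3940 and 3913 CPM in Intracellular libraries. On that scale the groups did not overlap, by a small margin, and Intracellular replicate 1 did not stand apart.

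rno-miR-181b-5p, encoded beside miR-181a on both chromosomes, stood at 1625, 1421 and 1711 CPM in EV libraries and at 849, 1247 and 1058 CPM in Intracellular libraries. rno-miR-181d-5p, the neighbour of miR-181c, stood at 616, 587 and 531 CPM in EV libraries and at 327, 442 and 396 CPM in Intracellular libraries. For both, every EV library was above every Intracellular library in CPM. miR-181b-5p averaged 1586 ± 149 CPM in EV libraries, against 1052 ± 199 CPM in Intracellular libraries (SD, n = 3), or 1153 CPM without Intracellular replicate 1. miR-181d-5p averaged 578 ± 43.3 CPM in EV libraries, against 388 ± 57.8 CPM in Intracellular libraries (SD, n = 3), or 419 CPM without that replicate. Non-overlap with EV above was found for 2 of the 6 tested members, set against 41.8% of all tested miRNAs. Non-overlap in CPM with EV below was found for 0 members, set against 3.66%, and 45.4% of tested miRNAs did not overlap in 1 direction or the other. By these shares the family did not stand out.

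rno-miR-181c-5p, 1 edit away from miR-181a-5p, was far rarer, at 24.6, 18.9 and 86.6 CPM in EV libraries, from 2, 2 and 8 counts, and at 16.9, 31.1 and 38.0 CPM in Intracellular libraries. EV replicate 3 was the highest of all libraries and the groups overlapped. Pooled, miR-181a-5p had 91.4 times the counts of miR-181c-5p in EV and 103 times in Intracellular libraries. How reads that fit several members were divided is not given in the sources used here, so the split between members is uncertain.

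Among the 3p arms, rno-miR-181a-1-3p led with 49.3, 47.4 and 97.5 CPM in EV libraries, from 4, 5 and 9 counts, and with 63.1, 107 and 99.4 CPM in Intracellular libraries. EV replicates 1 and 2 were below all Intracellular libraries, and EV replicate 3 lay among them. rno-miR-181c-3p had 0, 37.9 and 21.7 CPM in EV libraries, from 6 counts in all, and 16.9, 39.5 and 30.4 CPM in Intracellular libraries. The CPM ranges of this arm overlapped, and EV replicate 1 held none of it.

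The other 4 arms were close to the limit of detection and did not pass the filter on low counts. miR-181b-1-3p had 2 EV counts in all against 112 Intracellular counts, and miR-181a-2-3p had 1 against 12. miR-181b-2-3p had 0 EV counts against 3 Intracellular counts, and miR-181d-3p 0 against 1. A count of 0 in the 279118 pooled EV counts allows up to 10.7 CPM (3 counts), well above the pooled Intracellular levels of 0.214 and 0.0714 CPM of these 2 arms, so that a difference was not detectable at this depth. At the pooled Intracellular share, EV would have held 2.23 counts of miR-181b-1-3p, beside the 2 found.

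**Figure D1:**
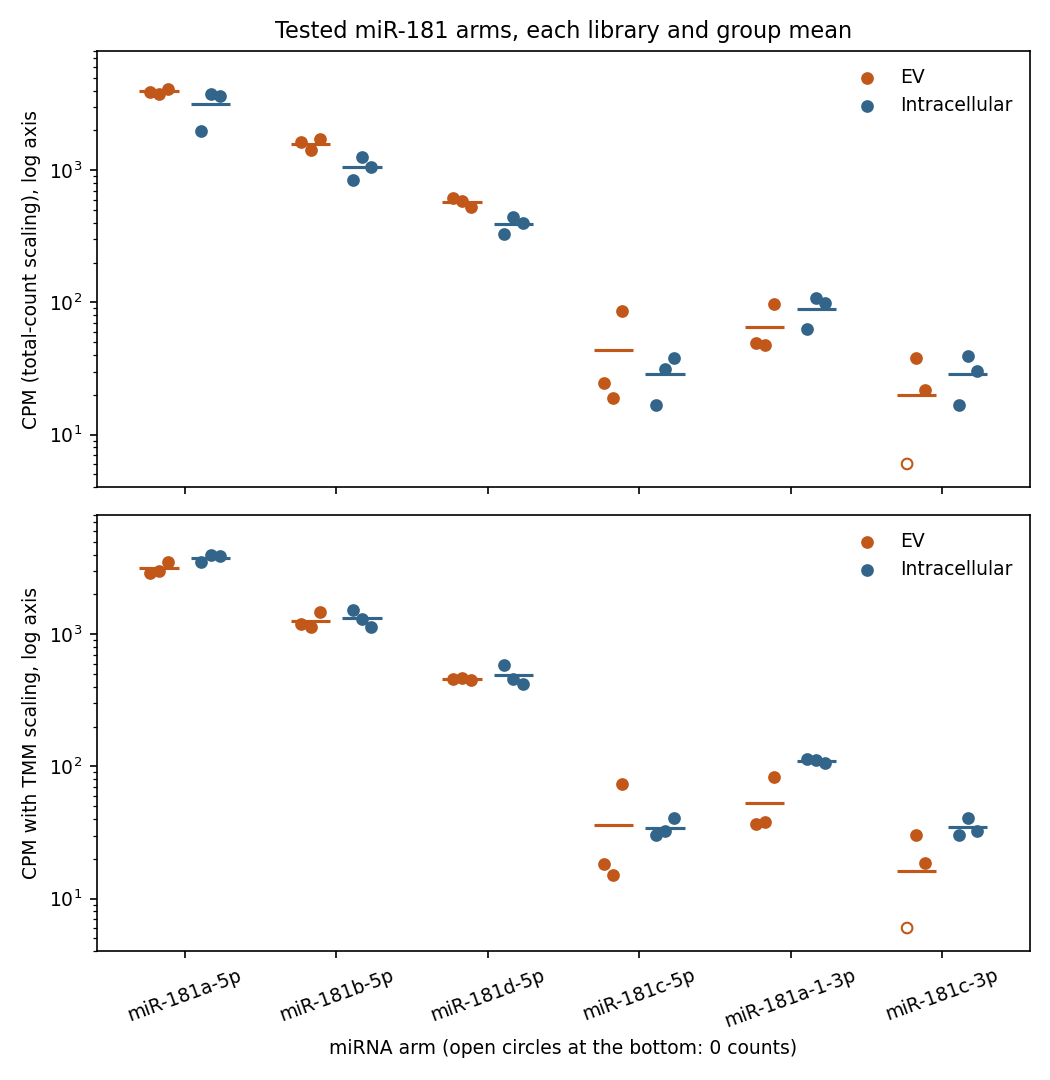
Level of each tested miR-181 arm in each library (points) with the group mean (line), EV left of Intracellular, on log axes, in CPM (top) and in CPM with TMM scaling (bottom); open circles stand for 0 counts and sit at an arbitrary height. miR-181b-5p and miR-181d-5p do not overlap between the groups in CPM but do with TMM scaling. miR-181a-5p, miR-181a-1-3p and miR-181c-3p do the reverse, the first and last of these by little.

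The order of the levels in both groups was miR-181a-5p, miR-181b-5p, miR-181d-5p and then miR-181a-1-3p, with no overlap between these neighbours within either group. Below them, miR-181a-1-3p overlapped with miR-181c-5p in EV but not in Intracellular libraries, and miR-181c-5p and miR-181c-3p overlapped in both groups. Counts carry no length term, and adapter ligation favours some sequences, so the order is one of counts and not of molecules.

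To compare EV with Intracellular libraries, edgeR's quasi-likelihood test was fitted to all 328 miRNAs that passed the filter. With TMM scaling, 1 of the 6 tested members was lower in EV and 0 were higher, where a call is an adjusted p under 0.05 by the method of Benjamini and Hochberg. Of all tested miRNAs, 17.1% were called lower, 25.6% higher and 42.7% in either direction. At an unadjusted p under 0.05 the counts of members were also 1 and 0. DESeq2 gave 1 and 0 calls as well. The share of members called lower was close to that of all miRNAs.

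The member called lower was miR-181a-1-3p, at -1.09 on the log2 scale (SE 0.35, adjusted p = 0.0189 by edgeR). Its TMM-scaled levels were 36.5, 37.8 and 83.4 CPM in EV libraries and 113, 111 and 106 CPM in Intracellular libraries, with no overlap. So scaled, miR-181a-5p and miR-181c-3p did not overlap either, with EV below by little. The share of all tested miRNAs without overlap under TMM scaling was not computed. The call of miR-181a-1-3p rests on 18 EV counts (95% Poisson interval 10.7 to 28.4), where the pooled Intracellular share would give 26.9. The interval covers counting error only and no scaling. The call was lost with total-count scaling (-0.48, SE 0.50, edgeR adjusted p = 0.553), when EV replicate 1 was left out (-0.91, 0.0929) and when EV replicate 2 was (-0.88, 0.108). Over all its alternatives the edgeR, DESeq2 or limma adjusted p lay between 0.00806 and 0.553.

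No 5p arm was called. With TMM scaling the log2 fold change was -0.27 for miR-181a-5p (SE 0.18, edgeR adjusted p = 0.254), -0.06 for miR-181b-5p (SE 0.19, adjusted p = 0.827), -0.02 for miR-181c-5p (SE 0.55, adjusted p = 0.984) and -0.09 for miR-181d-5p (SE 0.21, adjusted p = 0.759). miR-181c-3p had -1.03 (SE 0.66, adjusted p = 0.224), but -0.49 without EV replicate 1, -1.92 without EV replicate 2, -0.46 with total counts, and -1.56 and -2.65 by limma on log2(TPM + 1) and log2(TPM + 0.1), in no case called. With TMM scaling miR-181d-5p was at 456, 469 and 454 CPM in EV libraries and at 588, 459 and 424 CPM in Intracellular libraries, so that the gap seen in CPM was gone.

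The direction of all 4 5p arms turned with the scaling. With total counts, which take CPM as they are, the log2 fold change was 0.33 for miR-181a-5p (SE 0.27, edgeR adjusted p = 0.421), 0.59 for miR-181b-5p (SE 0.31, adjusted p = 0.152), 0.57 for miR-181c-5p (SE 0.65, adjusted p = 0.590) and 0.58 for miR-181d-5p (SE 0.33, adjusted p = 0.207). Neither direction was called for any member with total counts, against 32.6% of all tested miRNAs higher, 0.915% lower and 33.5% in either direction, and 0 members had an unadjusted p under 0.05. By limma on log2(TPM + 1) 0 members were called, with 1, miR-181b-5p, at an unadjusted p under 0.05. On log2(TPM + 0.1) these counts were 0 and 2, miR-181b-5p and miR-181d-5p, both higher in EV.

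Change of scaling moved the median over all tested miRNAs by 0.61 (log2), so the members' values are set against that median. With TMM scaling the median of the 6 members was -0.18 and that of all tested miRNAs -0.06. With total counts these were 0.45 and 0.55. Relative to the median, miR-181b-5p, miR-181c-5p and miR-181d-5p lay within their SE under both scalings. The 3p arms miR-181a-1-3p and miR-181c-3p lay below the median by more than their SE under both, and miR-181a-5p did so with TMM scaling alone.

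**Figure D2:**
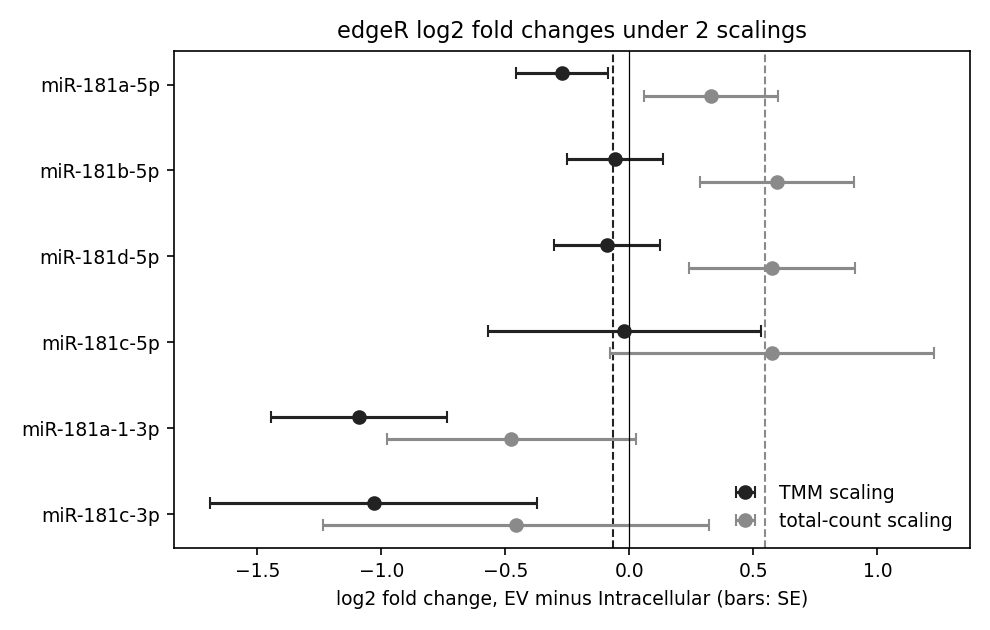
edgeR log2 fold change, EV minus Intracellular, of the 6 tested miR-181 arms with TMM scaling (black) and total-count scaling (grey); bars are SE from 3 EV and 3 Intracellular libraries, and dashed lines the median of all 328 tested miRNAs under each scaling. The 5p arms stand from -0.27 to -0.02 with TMM scaling and from 0.33 to 0.59 with total counts, and the 3p arms stand left of both medians.

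Ratios between members within a library do not depend on the scaling between libraries. miR-181a-5p made up 63.2%, 65.1% and 63.9% of the counts of the 5p arms in EV libraries and 62.3%, 68.8% and 71.0% in Intracellular libraries. miR-181b-5p made up 26.4%, 24.4% and 26.5% in EV libraries and 26.9%, 22.6% and 20.6% in Intracellular libraries. The make-up of EV libraries was most like that of Intracellular replicate 1, with less miR-181a-5p than in Intracellular replicates 2 and 3.

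The log2 ratio of miR-181b-5p to miR-181a-5p was -1.31 ± 0.09 in EV, against -1.53 ± 0.29 in Intracellular libraries (SD, n = 3), a difference of 0.23 (2-sided exact permutation p = 0.4). For miR-181d-5p the ratio was -2.75 ± 0.16 in EV, against -2.96 ± 0.33 in Intracellular libraries, a difference of 0.22 (exact permutation p = 0.4). For miR-181c-5p the ratio was -6.40 ± 0.87 in EV, against -6.77 ± 0.17 in Intracellular libraries, a difference of 0.38 (exact permutation p = 0.8). All 3 ratios overlapped between the groups. With 1 library at a time left out, the difference ranged from 0.10 (without Intracellular replicate 3) to 0.39 (without Intracellular replicate 1) for miR-181b-5p, and from 0.097 to 0.41, with the same libraries left out, for miR-181d-5p. For miR-181c-5p it ranged from -0.12, without EV replicate 3, to 0.71, without EV replicate 2, and was 0.076 with a prior count of 0.25 in place of 1.

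**Figure D3:**
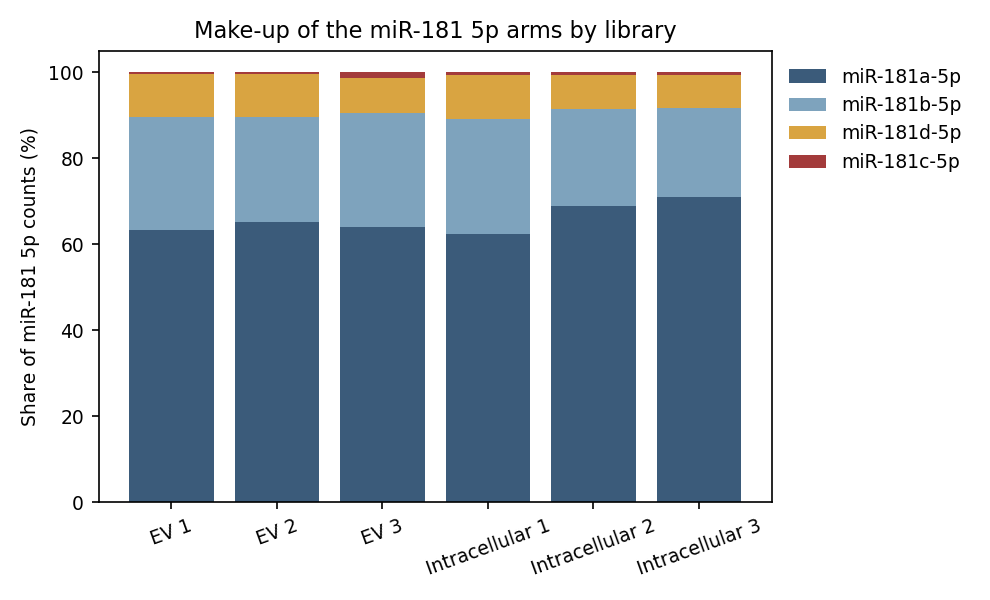
Share of each 5p arm in the summed 5p counts of the miR-181 family, by library, EV libraries left of Intracellular libraries. miR-181a-5p takes 62.3% to 71.0% in the 6 libraries and miR-181c-5p 0.326% to 1.34%.

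Of the 5 ratios between members reported here as results, that of miR-181a-1-3p to miR-181a-5p was the only one without overlap between the groups. miR-181a-1-3p made up 1.25%, 1.23% and 2.31% of its own and the miR-181a-5p counts in EV libraries, against 3.10%, 2.75% and 2.65% in Intracellular libraries. Every EV library lay below every Intracellular library. The log2 ratio of 3p to 5p was -5.77 ± 0.45 in EV, against -5.10 ± 0.13 in Intracellular libraries (SD, n = 3), a difference of -0.67 (2-sided exact permutation p = 0.1, the smallest that 3 against 3 samples allow, and 0.225 adjusted over 9 ratios).

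Pooled, the 3p share was 1.61% in EV (95% Wilson interval 1.02% to 2.54%) and 2.71% in Intracellular libraries (2.57% to 2.85%), where the intervals cover counting error only. Of 79 pairs of known 3p and 5p arms in which both were tested, 19.0% had every EV ratio below every Intracellular one and 32.9% had every EV ratio above. The median difference of these 79 pairs was 0.28, with the opposite sign. The difference of miR-181a-1-3p ranged from -0.93 to -0.52 when 1 library at a time was left out, and was -0.84 with a prior count of 0.25.

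miR-181c had a different balance of arms. In Intracellular replicates 1, 2 and 3 it had 31, 131 and 269 counts of the 3p arm and 31, 103 and 337 of the 5p arm, so that the 3p arm made up 44.4% to 56.0%. In EV libraries there were 0, 4 and 2 counts of the 3p arm and 2, 2 and 8 of the 5p arm. The log2 ratio was -0.81 ± 1.34 in EV, against 0.01 ± 0.33 in Intracellular libraries (SD, n = 3; difference -0.82, exact permutation p = 0.4), and the groups overlapped. The difference was -0.43 without EV replicate 1 or without EV replicate 3, -1.59 without EV replicate 2, and -1.38 with a prior count of 0.25 in place of 1. Pooled, the 3p share was 33.3% in EV (Wilson 16.3% to 56.3%) and 47.8% in Intracellular libraries (44.5% to 51.0%), intervals that overlap.

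By contrast, miR-181b-1-3p made up 0.738% of the pooled miR-181b pair in Intracellular libraries and miR-181d-3p 0.0179% of the miR-181d pair. For these 2, miR-181a-2-3p and miR-181b-2-3p, no difference between the groups is reported as a result, since with at most 2 EV counts each the ratio is set by the prior count added to each arm. Computed in this way, the ratios of miR-181a-2-3p, miR-181b-2-3p and miR-181d-3p also did not overlap, with EV above Intracellular libraries.

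**Figure D4:**
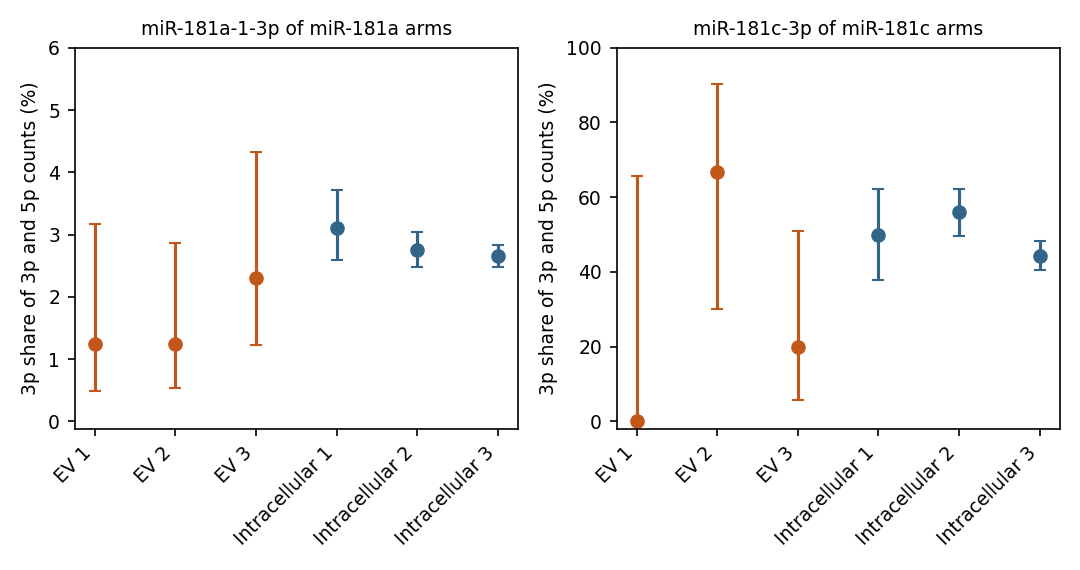
Share of the 3p arm in the summed 3p and 5p counts of miR-181a (left, miR-181a-1-3p) and miR-181c (right), by library, EV left of Intracellular; bars are 95% Wilson intervals and cover counting error only, and the axes differ in range. The EV points of miR-181a-1-3p lie below the Intracellular points, with wide intervals, and the Intracellular points of miR-181c-3p lie between 44.4% and 56.0%.

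The 3p arms also show how 3p counts were divided between the copies on chromosomes 13 and 3, a division that the 5p arms need not follow. miR-181a-1-3p, of chromosome 13, took 94.7% of the counts of the 2 miR-181a 3p arms in EV (18 of 19, Wilson 75.4% to 99.1%) and 99.1% in Intracellular libraries (Wilson 98.5% to 99.5%). miR-181b-1-3p, of the same chromosome, took 97.4% of the miR-181b 3p counts in Intracellular libraries (Wilson 92.6% to 99.1%) and both of the 2 in EV. The 3p arms named for the precursors of chromosome 3 held few counts in either group. The 5p arms of miR-181a and miR-181b, which could come from either chromosome, cannot be divided in this way.

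On chromosome 19, miR-181d-5p took 93.1% of the 5p counts of the neighbours miR-181c and miR-181d in EV (Wilson 88.3% to 96.0%) and 92.2% in Intracellular libraries (Wilson 91.5% to 92.9%). The 3p arms were divided the other way, with miR-181c-3p at 431 counts and miR-181d-3p at 1 in Intracellular libraries.

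Known miRNAs outside the family were ranked by likeness to miR-181a-5p, as Pearson's r of log2(CPM + 1) over the 6 libraries, among 145 with a mean of at least 100 CPM in each group. The 5 most alike were miR-370-3p (r = 0.982), miR-24-3p (0.974), miR-872-5p (0.964), miR-28-5p (0.957) and miR-224-5p (0.950). Without Intracellular replicate 1, r was 0.858 for miR-370-3p, 0.796 for miR-24-3p, 0.515 for miR-872-5p, 0.361 for miR-28-5p and 0.183 for miR-224-5p, so the likeness rests in large part on that library. Within the family r with miR-181a-5p was 0.831 for miR-181b-5p, 0.773 for miR-181d-5p, 0.562 for miR-181c-5p, 0.196 for miR-181a-1-3p and -0.06 for miR-181c-3p. All values of a library have its total in common.

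A list of 19 miRNAs tied to transforming growth factor beta and to fibroblast activation had 15 tested members, of which 3 were called higher in EV and 5 called lower (TMM), against 5 and 0 with total counts. Of all tested miRNAs, 25.6% were called higher and 17.1% lower with TMM scaling, and 32.6% and 0.915% with total counts. With single libraries left out, 2 to 3 were higher and 1 to 6 lower. Its most abundant members were miR-143-3p, at 197030 ± 12803 CPM in EV libraries, against 219151 ± 10544 CPM in Intracellular libraries, and miR-21-5p, at 129126 ± 5937 CPM in EV libraries, against 152971 ± 11468 CPM in Intracellular libraries (SD, n = 3). The summed miR-181 family, at 5910 to 6585 CPM in EV libraries and 3248 to 5672 CPM in Intracellular libraries, was small beside them. Median log2 fold changes of this list were -0.06 with TMM scaling and 0.56 with total counts.

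Since miR-181a is best known from T cells, 9 miRNAs of lymphocyte maturation were also counted. Of 6 tested, 1 was higher, miR-92a-3p of the miR-17-92 cluster, and 0 lower with TMM scaling, against 3 and 0 with total counts, beside the 25.6% and 32.6% of all tested miRNAs called higher under these scalings. Their median log2 fold change was -0.01 with TMM scaling. The call of miR-92a-3p was lost without EV replicate 1, while 2 members were higher without Intracellular replicate 2 and 1 was lower without Intracellular replicate 1. The most abundant were miR-20a-5p, at 663 ± 131 CPM in EV libraries, against 352 ± 129 CPM in Intracellular libraries, and miR-146a-5p, at 410 ± 81.5 CPM in EV libraries, against 359.9 ± 228 CPM in Intracellular libraries (SD, n = 3).

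Of the 5 leukocyte markers, miR-142-5p and miR-223-3p had 0 EV counts, with 14 and 6 Intracellular counts. The 5, all of them also in the lymphocyte list, summed to 217 to 265 CPM in EV libraries and to 63.6 to 170 CPM in Intracellular libraries, most of it miR-155-5p, which fibroblasts can also make. Their part in the miR-181 levels was not tested.

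Among other markers, the 2 endothelial miRNAs summed to 260 to 436 CPM in EV libraries and to 141 to 390 CPM in Intracellular libraries. The 2 glial markers in the table summed to 0 to 47.4 CPM in EV libraries and to 8.16 to 20.1 CPM in Intracellular libraries, and the 2 neuronal ones to 2160 to 2578 CPM in EV libraries and to 1580 to 3277 CPM in Intracellular libraries. The erythroid list stood at 152 to 222 CPM in EV libraries and at 2.26 to 5.98 CPM in Intracellular libraries. The liver and serum list stood at 11612 to 14069 CPM in EV libraries and at 397 to 476 CPM in Intracellular libraries, and its miR-122-5p alone at 12119 ± 1398 CPM in EV libraries, against 195 ± 130 CPM in Intracellular libraries (SD, n = 3). All 5 epithelial markers were at 0 in EV libraries and summed to 1.09 to 1.92 CPM in Intracellular libraries, below the level of a single EV count. With TMM scaling 2 of 2 tested erythroid miRNAs and 1 of 3 liver and serum miRNAs were called higher, 2 of 2 neuronal ones lower (0 of 2 with total counts), and none of the tested leukocyte, endothelial and glial ones was called (1 leukocyte miRNA was called higher with total counts). Whether RNA of such sources adds to the miR-181 counts in EV was not tested.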

How the data were processed

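The authors deposited whole counts for 552 known rat miRNAs and 519 predicted ones. Their deposited TPM values are these counts brought to a library total of 1000000 without regard to length. Cutadapt and the build Rnor_6.0 are named, per the submitters' processing notes. The aligner, like the counting program, is not given in the sources used here. Per the labels' protocols, adapters were ligated to both ends and the cDNA was amplified by PCR. No molecular identifiers are named, so intervals and floors cover counting error only.

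Counts were tested with edgeR 4.0.16 (R 4.3.3): quasi-likelihood test, TMM scaling, filterByExpr (minimum count 10, minimum total 15), robust dispersions, EV minus Intracellular, 2-sided, with p-values adjusted over all tested rows. SE came from log2 fold changes and F statistics. The fit was tested on simulated data, where 50% of miRNAs changed by 1 (log2) and 93.1% of those changed by 2 were called in the right direction. Of unchanged miRNAs, 3.70% were called. Their median log2 fold change was -0.205, a shift that was not removed from the values given here. Ratios within a library used a prior count of 1 and exact permutation tests (scipy 1.17.1). Alternatives were RLE and total-count scaling, no filter, DESeq2 1.42.0, limma 3.58.1 on log2(TPM + 1) and log2(TPM + 0.1), a replicate block, known miRNAs alone, a prior count of 0.25 and each library left out with the tested rows kept. Correlations and means without single libraries were added after the data were seen.

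The members, lists and tests were chosen with earlier results of these data known. Named miRNAs were the members, the 5 most like miR-181a-5p, and the 2 most abundant of the growth factor and lymphocyte lists; miR-92a-3p, miR-122-5p, miR-155-5p and the leukocyte miRNAs at 0 were named after their values were seen.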

Additional observations from a re-analysis of the deposited data

How the results depend on the processing

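With RLE scaling, DESeq2 and the replicate block, miR-181a-1-3p remained the 1 member called lower. It was 0 members with total counts, with limma on log2(TPM + 1) and on log2(TPM + 0.1), and 0 to 1 with single libraries left out. Of all miRNAs, 3 were called lower with total counts, 2 and 3 by limma with those pseudocounts and 37 among known miRNAs alone, against 56, and 197 were called higher without the filter, against 84. Leaving out single libraries gave 62 to 91 higher and 18 to 58 lower. Higher calls were 60.0% of calls with TMM scaling and 97.3% with total counts.

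Signs turned for the 5p arms, none of them called. With total counts, log2(TPM + 1) and log2(TPM + 0.1) the log2 fold change was 0.33, 0.39 and 0.39 for miR-181a-5p, 0.59, 0.61 and 0.61 for miR-181b-5p, 0.57, 0.33 and 0.34 for miR-181c-5p, and 0.58, 0.58 and 0.58 for miR-181d-5p. Among known miRNAs alone it was 0.062 for miR-181b-5p, 0.095 for miR-181c-5p and 0.036 for miR-181d-5p, and with DESeq2 0.011 for miR-181c-5p. With single libraries left out it ranged from -0.17 to 0.11 for miR-181b-5p, from -1.08 to 0.39 for miR-181c-5p and from -0.15 to 0.12 for miR-181d-5p. The log2 ratio of miR-181c-5p to miR-181a-5p differed by -0.12 to 0.71. The cause was not tested. The difference of miR-181b-1-3p to miR-181b-5p, on 2 EV counts, is set by the prior count and no result: it was 0.62 with a prior count of 1 and -0.43 with 0.25.

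For replicate numbers 1, 2 and 3, correlations of deviations from the group means were 0.0243, 0.0208 and 0.0160 between samples of equal number. Not every sample correlated best with its own number. Counting error at the depth of the EV libraries weakens such correlations, so they cannot decide whether the numbers pair the samples. With the block, 87 miRNAs were higher and 46 lower, and no call within the family changed. Depth limits the 3p arms, which rest on 18 or fewer EV counts each.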
